A study of Homo sapiens with 15 samples.

Results

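The inter-alpha-trypsin inhibitor chains were followed in A549 cells, a line from a human lung adenocarcinoma, exposed to dimethylamine vapour. The 6 genes were ITIH1, ITIH2, ITIH3, ITIH4 and ITIH5, which encode heavy chains, and AMBP, which encodes the light chain. Members were selected on the array's annotation, as transcript clusters (probe groups that stand for a gene or transcript) naming exactly 1 symbol, and by the highest mean over the 15 arrays where a symbol has several. Each of the 6 symbols had 1 cluster, so no choice by level was made. They are 6 of the 36176 clusters with 1 symbol, which stand for 33458 symbols, among 135750 clusters tested. The family was taken up with the result of ITIH2 in the highest dose against clean air already known, and the values of ITIH2 are therefore a description and no independent support for that difference.

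Cells lay on porous supports between medium below and the vapour that flowed over them. An exposure of 60 min and a recovery of 23 h made 1 cycle, and 3 cycles filled 72 h. Dimethylamine was given at 14.9 ppm (LD, low dose), at 41.1 ppm (MD, mid dose) or at 81.7 ppm (HD, high dose). Clean air control cells (CA) had the flow without the amine, and non-exposed control cells (NEC) had no flow. Each of the 5 groups had 3 arrays, and an array stood for a pool of 2 wells of the same line, so the tests measure the spread between pools. By the labels, the LD arrays belong to exposure plate 1, the MD arrays to plate 5 and the HD arrays to plate 6, while CA and NEC have 1 array on each of these plates. A dose needs more vapour wells than the layout gives to 1 plate, and 1 plate number may therefore cover several physical plates. In such bulk RNA, fewer cells with a transcript and less of it per cell cannot be told apart.

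Inter-alpha-trypsin inhibitors are proteins of blood plasma that are made mainly in the liver. The light chain is bikunin, a Kunitz-type protease inhibitor that is cut from a precursor shared with alpha-1-microglobulin. Heavy chains are joined to bikunin through its chondroitin sulfate chain. TSG-6, the product of TNFAIP6, moves heavy chains from there onto hyaluronan, a long sugar polymer of the matrix around cells, in a reaction known from ovulation and inflammation. ITIH4 lacks the site for the chondroitin sulfate link and is known as an acute phase protein.

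ITIH1 (chr3:52777599-52792068), ITIH3 (chr3:52794796-52808797) and ITIH4 (chr3:52812962-52830672) lie in a row on the GRCh38 assembly, with 2728 and 4165 bases between them. ITIH5 (chr10:7559270-7666966) and ITIH2 (chr10:7703316-7749520) form another group with 36350 bases between them, and AMBP lies at chr9:114060127-114078300. RefSeq promoter windows of GRCh38.p14, from 250 bases before to 50 after a start, were matched for 5 of the 6 members, with 7 windows in all. The member without a window was ITIH2, so its promoter is not described. The windows below show, 5′ to 3′ on the gene's strand, the promoters of AMBP and of 2 heavy chain genes, 1 on each of chromosomes 3 and 10. The mean signal of AMBP lay above the median of the negative controls but under their 95th percentile. The means of the 2 heavy chain genes lay below that median. Capitals mark CCAAT on either strand, and in ITIH4 also the adjoining TTCNNNGAA, the letters of a STAT site.
AMBP, chr9:114078251-114078550 (-): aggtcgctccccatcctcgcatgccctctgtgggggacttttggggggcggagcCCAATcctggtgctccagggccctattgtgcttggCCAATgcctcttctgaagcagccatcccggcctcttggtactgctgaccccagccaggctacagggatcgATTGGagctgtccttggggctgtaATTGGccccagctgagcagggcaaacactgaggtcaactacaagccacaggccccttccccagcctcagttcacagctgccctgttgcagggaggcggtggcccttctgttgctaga
ITIH4, chr3:52830623-52830922 (-): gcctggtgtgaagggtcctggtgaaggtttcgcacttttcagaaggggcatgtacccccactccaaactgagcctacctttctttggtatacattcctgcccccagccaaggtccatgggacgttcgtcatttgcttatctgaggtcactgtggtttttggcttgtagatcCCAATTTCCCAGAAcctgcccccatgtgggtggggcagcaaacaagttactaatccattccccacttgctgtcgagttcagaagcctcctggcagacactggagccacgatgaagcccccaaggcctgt
ITIH5, chr10:7666917-7667216 (-): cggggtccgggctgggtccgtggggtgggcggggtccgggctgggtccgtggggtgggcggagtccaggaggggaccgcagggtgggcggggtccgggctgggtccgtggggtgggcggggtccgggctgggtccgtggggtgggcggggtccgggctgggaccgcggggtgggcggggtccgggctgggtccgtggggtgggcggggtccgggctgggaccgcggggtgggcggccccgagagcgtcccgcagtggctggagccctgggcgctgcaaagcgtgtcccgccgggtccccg
The AMBP window holds 4 CCAAT matches, at bases 55 and 90 and, on the opposite strand, at bases 160 and 184, with 61.7% GC and 6 CpG. The ITIH4 window holds 1 CCAAT match at base 172 and 1 TTCNNNGAA match at base 177, with 53.7% GC and 5 CpG. The ITIH5 window holds none of the letters searched and is rich in GC, at 81.7% with 34 CpG. Of the windows not shown, that of ITIH1 at chr3:52778236-52778535 holds 1 CCAAT match at base 202. The other ITIH1 windows and the ITIH3 window hold none of the letters searched. Over the 35116 windows of all genes the medians were 58.7% GC and 14 CpG. A match to CCAAT was present in 34.6% of those windows, to TTCNNNGAA in 7.66%, to TATAAA in 11.5% and to GTTAAT, part of the site of the liver factor HNF1, in 6.88%, all searched on both strands. Letters that match a motif are a description of the window, not a measured site.

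Values are deposited log2 signals, so a difference of 1 is a doubling of signal. The array medians ran from 4.47 to 4.55 and pairs of arrays correlated at r from 0.974 to 0.984. The 612 clusters whose identifiers mark negative controls had array medians from 4.30 to 4.85, with a median of 4.74 over clusters and a 95th percentile of 7.07. Signals near or below that level have no certain size of change, and a gene is said to lie above it on an array where it exceeds the negative control median of that same array. Of the 10 markers of lung epithelium and A549, 6 lay above the negative control median on all 15 arrays, among them EPCAM, CDH1 and keratins, while CLDN4, NKX2-1, SFTPB and SFTPC lay below it on all arrays. Of the 10 hepatocyte markers, ALB, TTR and CPS1 lay above it on all arrays and 5 (APOA2, CYP3A4, CYP2E1, TAT and G6PC1) below it on all arrays. The means of ALB (5.65) and TTR (6.18) stayed under the 95th percentile of the negative controls, and that of CPS1 (15.73) lay above it.

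Of the family, ITIH2 alone gave a strong signal in these cells. Its mean was 10.40 over the 15 arrays, above all 612 negative control clusters. AMBP lay above the negative control median on 15 of 15 arrays, with a mean of 5.65, but below the 95th percentile of the negative controls. The other heavy chain genes lay at or under the negative controls. ITIH5 passed their median on 3 of 15 arrays, ITIH1 on 1, and ITIH3 and ITIH4 on 0. ITIH6, the heavy chain gene outside the 6 members (chrX:54748918-54798255), passed it on 0 of 15 arrays.

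ITIH2 encodes the heavy chain that is found with bikunin and ITIH1 in the classical plasma inhibitor. In NEC its log2 signal was 10.82 on plate 1, 11.91 on plate 5 and 12.33 on plate 6. In CA it was 9.76 on plate 1, 11.91 on plate 5 and 11.96 on plate 6. The 4 control arrays of plates 5 and 6 were thus high, and the controls of plate 1 were lower, CA by the larger amount. In LD the signal was 9.61, 10.01 and 9.67, in MD 9.41, 9.85 and 10.14, and in HD 9.26, 9.64 and 9.73. All 9 exposed arrays lay between 9.26 and 10.14, and every one lay below the lowest NEC array. The CA array of plate 1 fell within that span, so LD and MD overlapped CA, whereas the 3 HD arrays lay just under it. All HD arrays lay below all CA arrays in 5.61% of all clusters.

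**Figure D1:**
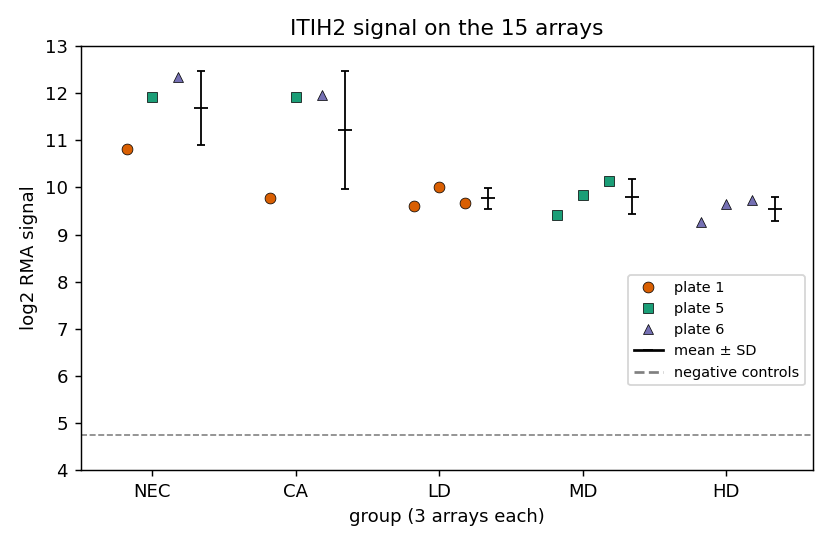
Log2 RMA signal of ITIH2 on each of the 15 arrays by group, with colour and shape giving the exposure plate, bars the mean ± SD of the 3 arrays of a group, and the dashed line the median of the negative control clusters (4.74). The exposed arrays sit between 9.26 and 10.14, and the controls reach 12.33 except on plate 1, where they are 10.82 (NEC) and 9.76 (CA).

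The group means of ITIH2 were 11.69 ± 0.78 in NEC, 11.21 ± 1.26 in CA, 9.80 ± 0.37 in MD, 9.76 ± 0.22 in LD and 9.54 ± 0.25 in HD (log2 signal, SD, n = 3 each). In this order the neighbours NEC and CA, and MD and LD, differed by less than their spread, and LD and HD differed by 0.22 in size, close to their SDs. The step from CA to MD, 1.41 in size, was larger than the SD of either group but did not pass the adjusted test. The CA group had the widest spread of ITIH2, and it came from the array of plate 1.

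The comparison of each dose with CA asked what the vapour adds to the air flow. The differences and tests come from limma, fitted to all 135750 clusters with the 5 groups in 1 model and adjusted by Benjamini-Hochberg over all clusters, and a gene was called at an adjusted p below 0.05. For HD against CA, ITIH2 differed by −1.67 (SE 0.47, 3.18-fold lower, unadjusted p = 0.00269 and adjusted p = 0.412, limma). For MD against CA it differed by −1.41 (adjusted p = 0.720), and for LD against CA by −1.45 (adjusted p = 0.706, limma). None of the 3 passed. The study used looser criteria, more than 2-fold with p below 0.05 before adjustment. Here these were applied to the limma values of the 5 groups, not to the study's own output. ITIH2 then counted as lower at every dose, as did 0.401% of all clusters in HD, 0.305% in MD and 0.231% in LD against CA.

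CA and NEC share plates with the doses, so the plate was entered as a block, which takes the plate differences from the 6 control arrays. The block assumes that a plate shifts exposed and control arrays by the same amount. That assumption was not tested, and no dose lies on more than 1 plate. With this block ITIH2 fell by 2.37 in HD against CA on the log2 scale (SE 0.31, 95% interval −3.03 to −1.71, 5.16-fold lower, adjusted p = 0.0372, limma). It ranked 7 of 135750 clusters by p with the block and 885 without it. MD against CA was −1.88 with the block (95% interval −2.54 to −1.22), rank 6, but did not pass (adjusted p = 0.527, limma). LD against CA was −0.29 with the block (95% interval −0.95 to 0.37, adjusted p = 0.931, limma). The block therefore made the HD difference larger and took most of the LD difference away.

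The call of ITIH2 in HD against CA with the block depended on single arrays. It was lost without CA replicate 3 (plate 6; −2.26, adjusted p = 0.472, limma), CA replicate 2 (adjusted p = 0.103), NEC replicate 2 (adjusted p = 0.103), NEC replicate 3 (adjusted p = 0.187) and each HD array (adjusted p from 0.0924 to 0.126). It held without either control of plate 1 (−2.51, adjusted p = 0.0324, limma). In these fits the difference itself stayed between −2.51 and −2.23. Without the block, leaving out CA replicate 1 gave −2.40 (adjusted p = 0.0538, limma) and leaving out CA replicate 3 gave −1.30 (adjusted p = 0.722). Without CA replicate 1 the difference from CA was −2.14 in MD (adjusted p = 0.433) and −2.17 in LD (adjusted p = 0.221, limma), and without CA replicate 3 it was −1.04 and −1.07.

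**Figure D2:**
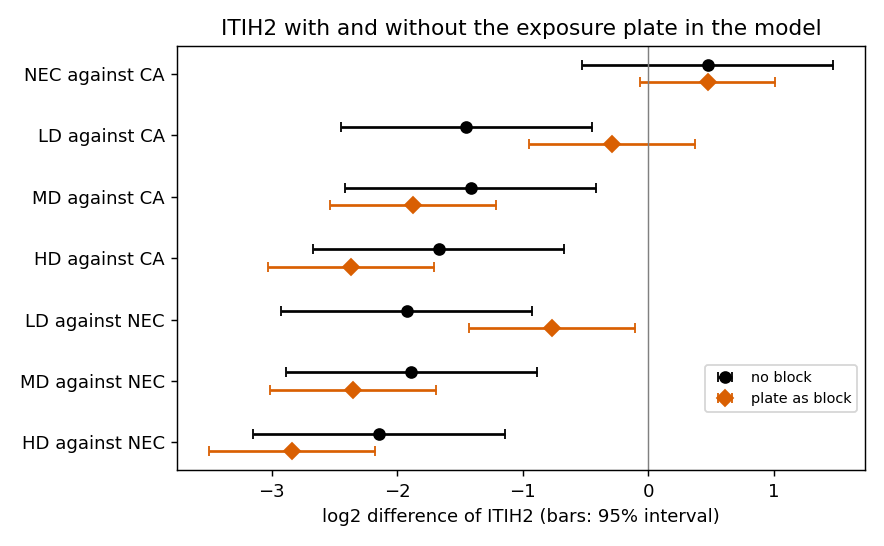
Log2 difference of ITIH2 for 7 comparisons with the controls, without a block (black circles) and with a block for the exposure plate (orange diamonds), with 95% intervals from the limma fits. HD and MD against CA move from −1.67 to −2.37 and from −1.41 to −1.88 with the block, and LD against CA moves from −1.45 to −0.29.

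Within plates the same values can be read directly, without a test because each plate has 1 CA and 1 NEC array. On plate 6 the HD mean of ITIH2 minus the CA array was −2.42, and minus the NEC array −2.79, with 3 of 3 HD arrays below both. On plate 5 the MD mean was at −2.11 relative to CA and also to NEC, with 3 of 3 MD arrays below both. On plate 1 the LD mean minus the CA array was 0.00035, with 2 of 3 LD arrays below CA, and minus the NEC array −1.06, with 3 of 3 below NEC. The high and mid doses were thus well below both controls of their own plate, and the low dose was below the non-exposed control but level with clean air.

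Each dose lies on a plate of its own. What belongs to LD, MD or HD and what belongs to its plate therefore cannot be told apart without the controls. Both controls of plate 1 were lower in ITIH2 than the 4 controls of plates 5 and 6, by at least 1.09 on the log2 scale. Of the 135750 clusters, 68 (0.0501%) had both plate 1 controls at least 1 below the 4 others, and 11281 (8.31%) had both below them by any amount. The NEC array exceeded the CA array in ITIH2 by 1.06 on plate 1, by 0.0008 on plate 5 and by 0.37 on plate 6.

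Against NEC, which differs from the exposed wells in the flow as well, the 3 doses and NEC did not overlap in ITIH2. Groups without overlap in this direction were common, at 7.06% of all clusters for HD, 6.98% for MD and 6.92% for LD. The difference from NEC was −2.15 in HD (adjusted p = 0.0861), −1.89 in MD (adjusted p = 0.342) and −1.92 in LD (adjusted p = 0.487, limma). With the plate block ITIH2 fell by 2.84 in HD against NEC (SE 0.31, 7.17-fold lower, adjusted p = 0.00478, limma), and without NEC replicate 3 this call was lost (−2.95, adjusted p = 0.289, limma). MD against NEC was −2.35 with the block (rank 3, adjusted p = 0.0853), and LD against NEC was −0.76 (adjusted p = 0.671, limma). NEC against CA, the comparison for the flow alone, was 0.47 without the block (95% interval −0.53 to 1.48) and 0.47 with it (95% interval −0.06 to 1.01), and did not pass (adjusted p = 0.973 and 0.865, limma). These comparisons share the CA or NEC arrays and do not count as separate evidence.

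Between doses, ITIH2 differed by −0.22 for HD against LD, by −0.26 for HD against MD and by 0.03 for MD against LD, each with an interval of about 1 to either side (SE 0.47). With the block HD against LD was −2.08 and MD against LD −1.59, where each dose is read against the controls of its own plate, and neither passed (adjusted p = 0.384 and 0.773, limma). The slope of ITIH2 on concentration over CA and the 3 doses (12 arrays) was −0.156 per 10 ppm (SE 0.060, adjusted p = 0.545, limma). With the block it was −0.332 per 10 ppm (SE 0.044, adjusted p = 0.0337), and it no longer passed when any 1 of the CA or HD arrays was left out (adjusted p from 0.0686 to 0.593, limma).

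AMBP encodes the precursor of bikunin and alpha-1-microglobulin. Its log2 signal was 5.66, 6.07 and 5.51 in NEC on plates 1, 5 and 6, and 6.12, 5.73 and 5.67 in CA on the same plates. It was 5.42, 5.75 and 5.35 in LD, 5.39, 5.65 and 5.82 in MD, and 5.49, 5.64 and 5.53 in HD. The groups overlapped except that the 3 HD arrays lay under the 3 CA arrays, the pattern of 5.61% of all clusters. AMBP differed by −0.28 in HD against CA (SE 0.21, 95% interval −0.73 to 0.16, adjusted p = 0.911, limma) and by −0.08 with the block (95% interval −0.63 to 0.47). Within plates the dose mean minus the CA array was −0.61 for LD, −0.11 for MD and −0.11 for HD. The CA array of plate 1 was here the highest of the 15 arrays, whereas in ITIH2 it was the lowest of the 6 controls.

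Among the remaining heavy chains, ITIH1 ran from 3.10 to 4.63, and its highest value was HD replicate 1, the only array on which it passed the negative control median. ITIH3 ran from 3.12 to 3.66 and ITIH4 from 3.58 to 3.94. ITIH5, which is known from tissues other than liver, ran from 3.63 to 5.08, with its highest value in LD replicate 2. The HD differences from CA were 0.08 in ITIH1, −0.06 in ITIH3, −0.10 in ITIH4 and 0.09 in ITIH5, each within its SE (0.31, 0.19, 0.17 and 0.31). ITIH6 ran from 2.80 to 4.12 and differed by 0.09 (SE 0.25). At these levels the arrays give no measurable amount of the transcripts, and a change could not have been sized. Of the 2 genes on chromosome 10, ITIH2 thus had the highest signals of the family relative to the negative controls while its neighbour ITIH5 stayed near them.

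**Figure D3:**
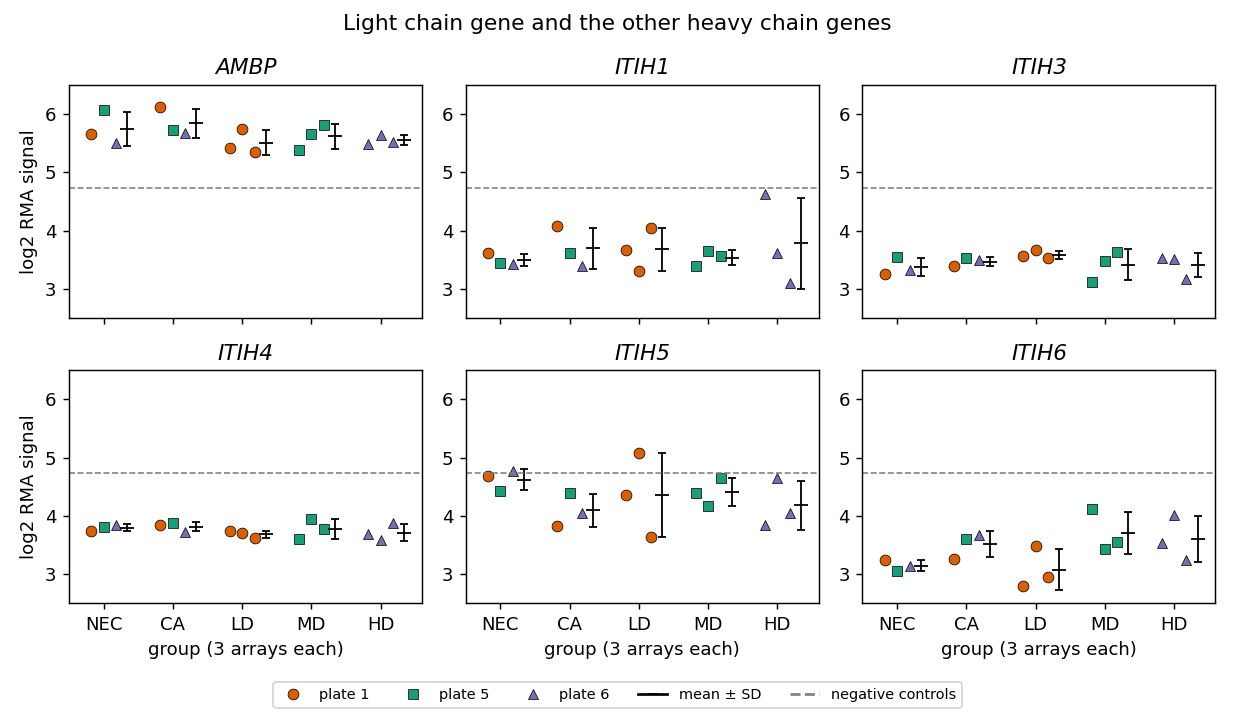
Log2 RMA signal of AMBP, of the heavy chain genes ITIH1, ITIH3, ITIH4 and ITIH5, and of ITIH6 on each of the 15 arrays, by group and exposure plate, with the mean ± SD of each group (n = 3) and the negative control median (dashed, 4.74). AMBP lies above the line on all arrays, and the other genes lie mostly under it.

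Across the family, 0 of the 6 members were called by limma in any of the 10 group comparisons or in the slope without the block. The background of calls was 0.0435% of all clusters in HD against CA, 0.236% in HD against NEC, 0.0147% in MD against NEC, 0.00147% in LD against NEC, 0.0155% in HD against LD and 0.0744% in the slope. It was 0% in MD, LD and NEC against CA, in HD against MD and in MD against LD. In those 5 comparisons 8378, 8617, 7381, 6000 and 11639 clusters had an unadjusted p below 0.05, and limma with an intensity trend called 3, 0, 1, 0 and 2. With the plate block 1 of 6 members, ITIH2, was called in HD against CA (background 0.00737%), in HD against NEC (background 0.0869%) and in the slope (background 0.0125%). With the block no member was called in MD against NEC (background 0.00147%), in LD against NEC (background 0.000737%) or in MD, LD and NEC against CA (background 0%). At an unadjusted p below 0.05, 1 of 6 members, ITIH2, passed in each dose against CA without the block, beside 6.39% of all clusters in HD, 6.17% in MD and 6.35% in LD. In HD against CA 4 of 6 members had lower means, and the median difference of the members was −0.08 beside −0.01 over all clusters.

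The chains need partners outside the family. Of 16 genes for hyaluronan and its binding proteins, 14 were measured, 5 of them above the negative control median on all arrays, and 0 were called in HD against CA with or without the block. Their median difference was −0.10. TNFAIP6, which encodes the transfer enzyme TSG-6, differed by −0.04 (SE 0.19) and lay above the negative control median on 14 of 15 arrays. CD44, the main cell surface receptor of hyaluronan, differed by −0.23 (SE 0.26). The smallest p-values were those of HAS3, a hyaluronan synthase (0.80, SE 0.31, adjusted p = 0.695, above the negative control median on 2 arrays), CEMIP, which takes part in the breakdown of hyaluronan (0.49, SE 0.26, adjusted p = 0.822), and VCAN, the hyaluronan-binding proteoglycan versican (−0.34, SE 0.18, adjusted p = 0.830, limma).

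Of 20 genes for chondroitin sulfate assembly, the sugar chain that links heavy chains to bikunin, 18 were measured, 12 above the negative control median on all arrays, and 0 were called. Their median difference was 0.11. CSGALNACT2 and CSGALNACT1, enzymes that begin and extend the chain, differed by 0.90 (SE 0.26, adjusted p = 0.420) and −0.64 (SE 0.31, adjusted p = 0.792, limma), in opposite directions. CHST3, which sulfates the chain, differed by 0.64 (SE 0.27, adjusted p = 0.727, limma). Of 13 other genes with a Kunitz domain, 12 were measured, 7 above the negative control median on all arrays, and 0 were called, with a median of 0.02. TFPI2, a secreted inhibitor with Kunitz domains like bikunin, differed by 1.81 (SE 0.45, adjusted p = 0.302, limma), and by 0.93 with the block (adjusted p = 0.479). APP and APLP2, membrane proteins with a Kunitz domain in some isoforms, differed by 0.36 (SE 0.19, adjusted p = 0.827) and −0.28 (SE 0.23, adjusted p = 0.924, limma).

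Genes beside both groups of chain genes were read in the same way. Of 6 genes near ITIH2 and ITIH5 on chromosome 10, all measured and 5 above the negative control median on all arrays, 0 were called and the median was 0.01. SFMBT2 differed by 0.59 (SE 0.28) and ATP5F1C, a subunit of the mitochondrial ATP synthase, by −0.51 (SE 0.25, adjusted p = 0.788 and 0.807, limma). Of 9 genes near ITIH1, ITIH3 and ITIH4 on chromosome 3, 7 were measured, 6 above the negative control median on all arrays, and 0 were called. Their median was 0.00, and GLT8D1 had the smallest p (−0.69, SE 0.31, adjusted p = 0.761, limma). These lists were put together from known biology and chromosome order, and their counts say nothing particular about them.

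Markers of other cells were counted because the labels name A549 alone. Of the 10 hepatocyte markers 0 were called in HD against CA, and the mean of the list ran from 5.58 to 5.69 over the CA arrays and from 5.43 to 5.59 over the HD arrays. The LD arrays were lowest in this list, at 5.08 to 5.42, only just below the lowest HD array at 5.43. The mean of the 6 endothelial markers was also low in LD, at 3.71 to 4.22, with the highest LD array just above the lowest CA array. Of these lists, 5 hepatocyte and 3 endothelial markers lay below the negative control median on all arrays. That median was itself 4.43, 4.61 and 4.30 on the LD arrays, beside 4.57 to 4.85 on the other arrays. For ITIH2, LD against CA was −1.45 without the plate block and −0.29 with it. In HD against CA, CPS1, which is known in liver and in some lung tumour lines, differed by −0.90 (SE 0.23, adjusted p = 0.327, limma). Of the 8 leukocyte markers 1, CD79A, rose (2.19, SE 0.37, adjusted p = 0.0458, limma), where 0.0435% of all clusters were called. With the block CD79A did not pass (1.81, adjusted p = 0.308, limma). The mean of that list ran from 6.88 to 7.14 over CA and from 7.23 to 7.52 over HD, while the median difference of its genes was 0.08. CD68 differed by 0.75 (SE 0.23, adjusted p = 0.496, limma), and PTPRC, CD3E and CD14 differed by −0.17, −0.09 and −0.15. In HD against NEC, where ITIH2 had its smallest adjusted p, 2 leukocyte markers and 1 epithelial marker were called without the block. The share called over all clusters there was 0.236%. CD79A rose by 2.99 (adjusted p = 0.00259) and also passed with the block (2.61, adjusted p = 0.0450, limma). CD68 rose by 1.45 (adjusted p = 0.0108) and the keratin KRT19 by 1.82 (adjusted p = 0.00656), and neither passed with the block (adjusted p = 0.114 and 0.105, limma). In the same comparison LYZ, CD3E, PTPRC and CD14 differed by 0.79, 0.04, −0.30 and −0.30. KRT7, KRT8, KRT18 and EPCAM differed by 1.05, 0.86, 1.04 and 0.31. CDH1 went the other way, by −0.98 (adjusted p = 0.212), and by −1.11 in HD against CA (adjusted p = 0.270, limma). CD68, KRT19, CDH1 and the markers listed beside them were named after their values were seen. Among the leukocyte markers, CD3D and MS4A1 lay below the negative control median on all arrays. Of 7 fibroblast and 6 endothelial markers measured, 0 were called in HD against CA or NEC. At shares this low over all clusters, lists of this length usually have 0 calls. The lists without a call therefore say nothing about other cells. The part of these markers in the ITIH2 values was not tested.

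The genes most like ITIH2 in pattern were found among the other 33457 symbols by the root mean square difference of log2 signals over the 15 arrays, after each gene was centred on its own mean. ITIH2 itself had a root mean square of 1.04 about its mean. The nearest was HES1, a transcriptional repressor downstream of Notch, at a distance of 0.348. INSL4, a peptide of the insulin family known from placenta, followed at 0.361, and FGB, the beta chain of fibrinogen, at 0.415. The distances were computed on the arrays that showed the ITIH2 pattern, so the likeness of these genes is a description.

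All 3 genes shared the low controls of plate 1. HES1 was 10.01 in NEC and 9.21 in CA on plate 1, from 10.59 to 11.32 in the 4 controls of plates 5 and 6, and from 8.24 to 9.79 on the 9 exposed arrays. INSL4 was 12.82 in NEC and 12.66 in CA on plate 1, from 14.34 to 14.84 in the other controls and from 11.42 to 12.85 on the exposed arrays. FGB was 18.29 and 17.96 on plate 1, from 18.63 to 19.64 in the other controls and from 16.59 to 17.67 on the exposed arrays. In HES1 the CA array of plate 1 lay within the range of the exposed arrays and the NEC array above it. In INSL4 both plate 1 controls lay within the range of the exposed arrays, and in FGB both lay above it. For HD against CA, HES1 differed by −1.38 (adjusted p = 0.431), INSL4 by −2.02 (adjusted p = 0.327) and FGB by −1.66 (adjusted p = 0.0735, limma). With the block INSL4 fell by 2.70 (adjusted p = 0.0372) and FGB fell by 2.09 (adjusted p = 0.0401), while HES1 was at −2.03 (adjusted p = 0.0872, limma). The 3 genes were chosen for their likeness to ITIH2 on these arrays. Their low controls on plate 1, their differences and these p-values are therefore no separate evidence.

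**Figure D4:**
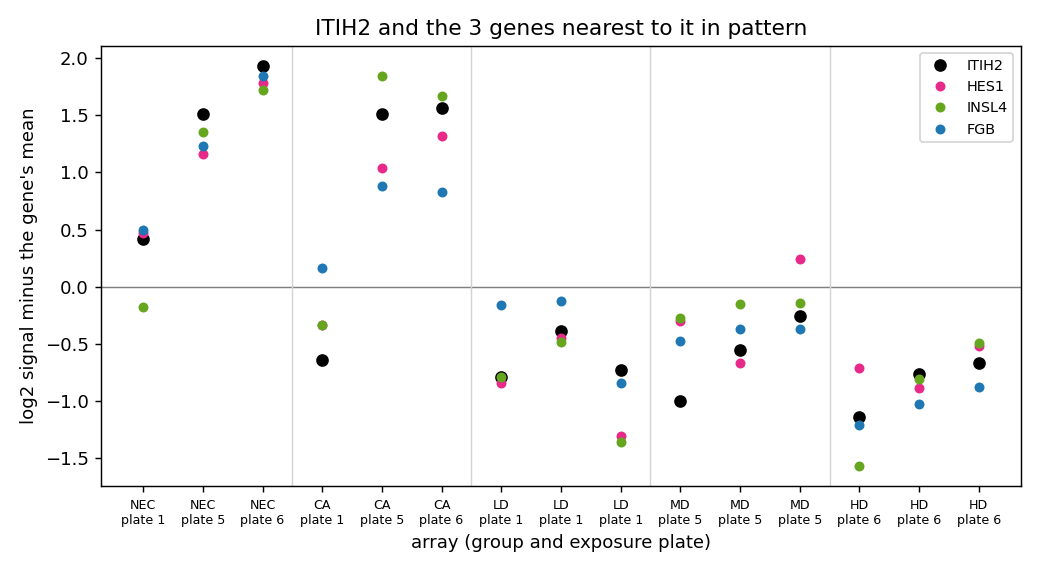
Log2 signal of ITIH2 (black), HES1, INSL4 and FGB minus each gene's own mean over the 15 arrays (vertical axis), for each array by group and exposure plate (horizontal axis). The 4 controls of plates 5 and 6 lie high in all 4 genes, and the exposed arrays lie mostly below 0.

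For AMBP the nearest were LOC100130298 (0.124), LRRC37A5P (0.131) and DEFA4 (0.137), beside a root mean square of 0.218 of AMBP about its own mean. Their means were 3.44, 3.16 and 4.48, all under the negative control median, so the nearest patterns to AMBP were those of clusters without certain signal.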

How the data were processed

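The authors isolated RNA with the RNeasy kit, labelled it with the WT PLUS kit and hybridised it to Clariom D arrays, and, per the methods and the labels, used the Transcriptome Analysis Console 4.0 for RMA (robust multi-array average) normalisation. The deposited values are log2 signals, which were used as given. RMA sets all arrays to a common distribution, so a change shared by most transcripts would not show.

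Of 138745 deposited clusters, 2995 controls were left out. R 4.3.3 was used with limma 3.58.1 (lmFit, eBayes) and data.table (version 1.17.8). Models were fitted on the 15 arrays in 5 groups, with 10 residual and 6.32 prior degrees of freedom (8 residual with the plate block), two-sided. The fit without the block was first tried on simulated data that held no plate differences. The fit with the block was not tried on simulated data. The number of arrays limits the precision. Samples were grouped by the group label. CA and NEC arrays were numbered 1 to 3 in the order of plates 1, 5 and 6. The pairing by plate comes from the labels. The CA and NEC deviations from the group means correlated at r of 0.261 (plate 1), 0.0699 (plate 5) and 0.204 (plate 6) over 17622 protein-coding genes. Each CA array correlated best with the NEC array of its own plate, though weakly on plate 5, and the reverse match was not computed. Dose replicates with the same number share no plate and were not paired.

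All 6 members and ITIH6 were named, and of each further list the genes called, or else up to 3 with the smallest p in HD against CA. The 3 nearest patterns were named for each member whose mean lay above the negative control median. TNFAIP6, CD44 and, among the markers, CPS1 were named for their role. The members and lists were chosen with earlier results of these data known. Alternatives left out single arrays, the other groups, dim clusters or the common spread, centred or weighted the arrays, or added the plate.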

Additional observations from a re-analysis of the deposited data

How the results depend on the processing

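Without the plate in the model, 0 of 6 members were called in any comparison, and the same count was found with only the compared groups in the fit, median-centred arrays, an intensity trend, array weights and without any 1 array. With clusters above the negative controls only, 0 of the 3 members that remained in the fit (ITIH2, ITIH5 and AMBP) were called. The difference of ITIH2 in HD against CA then ran from −2.40 to −1.30 (adjusted p from 0.0538 to 0.722, limma) and in HD against NEC from −2.58 to −1.82 (adjusted p from 0.0502 to 0.292). MD against CA ran from −2.14 to −1.04 and LD against CA from −2.17 to −1.07. NEC against CA ran from −0.25 to 0.91, so its direction was not settled. With the exposure plate as the replicate block, the count of called members moved from 0 to 1 in HD against CA, HD against NEC and the slope, each time ITIH2. Under the block ITIH2 in MD against LD turned from 0.03 to −1.59 (unadjusted p = 0.00131, adjusted p = 0.773, limma). It was the single member value of those run that turned with an unadjusted p below 0.05 in either setting. The block changed no other call of a member.

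Fits with the block and without 1 array of CA, NEC or HD were added after seeing the data. The count of called members was 0 to 1 in HD against CA, with 1 only without CA replicate 1 or NEC replicate 1, which gave identical values. In HD against NEC it was 1 except without NEC replicate 3. In the slope, which does not use NEC, it was 0 when any 1 of the CA or HD arrays was left out. A second cluster for a member was not available to try, as each symbol had 1. The number of arrays, 3 per group with 1 control of each kind per plate, limits all of these values, and signals near the negative controls limit those of AMBP and of the heavy chains other than ITIH2.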
